A study of Homo sapiens with 4 samples.

Results

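Genes of the WNT pathway were followed in nascent RNA of HCT116 cells, a human colorectal carcinoma line. They are 75 symbols taken by name from the 60656 genes listed: the WNT ligands and their secretion factors, the R-spondins and LGR receptors, the Frizzled and LRP receptors, the DKK and SFRP inhibitors, the destruction complex, the nuclear factors, the TLE co-repressors and a set of direct targets. All 75 names were found, each once, and 55 had enough reads to be tested. Among the 75, 10 targets are genes that β-catenin is known to switch on: AXIN2, RNF43, ZNRF3, NKD1, NOTUM, LGR5, ASCL2, SP5, LEF1 and TCF7. The other 65 are called core components. Several targets are also parts of the pathway, since they encode its feedback inhibitors or its own transcription factors.

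TTchem-seq labels RNA made during a short pulse of 4-thiouridine, so the counts reflect recent transcription rather than stored RNA. The DKO group (2 libraries) comes from cells that carry TOP2A fused to mAID, an auxin-inducible degron, and are TOP2B -/-, given 500 µM auxin for 8 h to destroy the TOP2A protein; their genotype label is a double knockout. The WT group (2 libraries) has the genotype label wildtype, and the protocol pairs the double mutant with the TOP2A degron line that still has TOP2B. It mentions auxin for the double mutant alone. The genotype, the auxin and any drift between the lines thus cannot be told apart. Every culture was arrested in G1 with 2 µM palbociclib over 28 h, then pulsed for 30 min with 1 mM 4-thiouridine. Whether the replicates were separate cultures is not stated, so p-values measure only the spread between these libraries. In bulk RNA, a change per cell and a change in the share of cells transcribing a gene cannot be told apart.

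In the canonical pathway, WNT ligands bind Frizzled receptors and the co-receptors LRP5 and LRP6, and Dishevelled proteins pass the signal on. The destruction complex of Axin, APC, GSK3 and casein kinase marks β-catenin for degradation until a signal stops it, after which β-catenin enters the nucleus and joins TCF and LEF factors at target genes. R-spondins, acting through LGR receptors, remove the ubiquitin ligases RNF43 and ZNRF3 that clear Frizzled from the cell surface. In the gut this pathway maintains crypt stem cells, and most colorectal cancers carry mutations that keep it on. HCT116 cells have a mutated CTNNB1 allele whose β-catenin escapes the destruction complex, so target transcription here runs partly without ligand.

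Counted reads totalled 51142867 to 53777749 per library. Epithelial markers were abundant, with 23760 to 26993 reads per library over 6 genes, of which 4 fell in DKO and none rose. The falls were small, with log2 fold changes of -0.37 (CDH1), -0.22 (CLDN4), -0.21 (KRT8) and -0.19 (KRT18). EPCAM and KRT19 were nearly level (both 0.04), and 25.2% of tested protein-coding genes fell. The immune marker genes PTPRC, CD3E and CD14 had 3 to 5 reads per library in sum. Of 4 fibroblast markers 3 stayed under 10 reads in each library, and COL1A1 made up nearly all of their 163 to 199 reads. The 3 endothelial markers summed to 58 to 67 reads. TOP2A RNA was 165 and 168 CPM (counts scaled by library size) in DKO and 126 and 122 in WT, and TOP2B 147.5 and 150 against 140 and 143. Since the degron acts on protein and an edit need not lower RNA, these levels do not check the labels. A chi-square of the counts per degree of freedom was 5.03 between the DKO replicates and 4.35 between the WT replicates, so none looked like 1 library deposited again.

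Of the 55 tested members, 14 were called higher and 16 lower in DKO (edgeR's quasi-likelihood test, Benjamini-Hochberg adjusted p under 0.05 over all 19103 tested genes). That is 54.5% of the tested members, where 40.1% of all tested genes were called, 19.0% higher and 21.1% lower. Among tested protein-coding genes, which all members are, 45.5% were called, 20.3% higher and 25.2% lower. The median log2 fold change of the 55 was -0.004, beside -0.006 over all tested genes. The CPM of the groups did not overlap for 41 members, beside 71.7% of protein-coding genes. These shares lie near those of protein-coding genes and say nothing particular of the pathway as a whole. Leaving out either WT library reduced the calls, among members as over all tested genes. With no filter beyond 1 read, 9 members were called higher and 10 lower. Over all genes the calls were then 1640 and 1655, against 3632 and 4025 in the main fit. The members that lost their calls there were WNT2B, WNT9A, FZD4, FZD5, LRP6, NOTUM, ZNRF3, DVL1, DVL2, TLE3 and TLE5. All 30 called members kept their direction under each of the alternatives run. The groups of each did not overlap in CPM, so a turn was hardly possible when a library was left out.

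**Figure D1:**
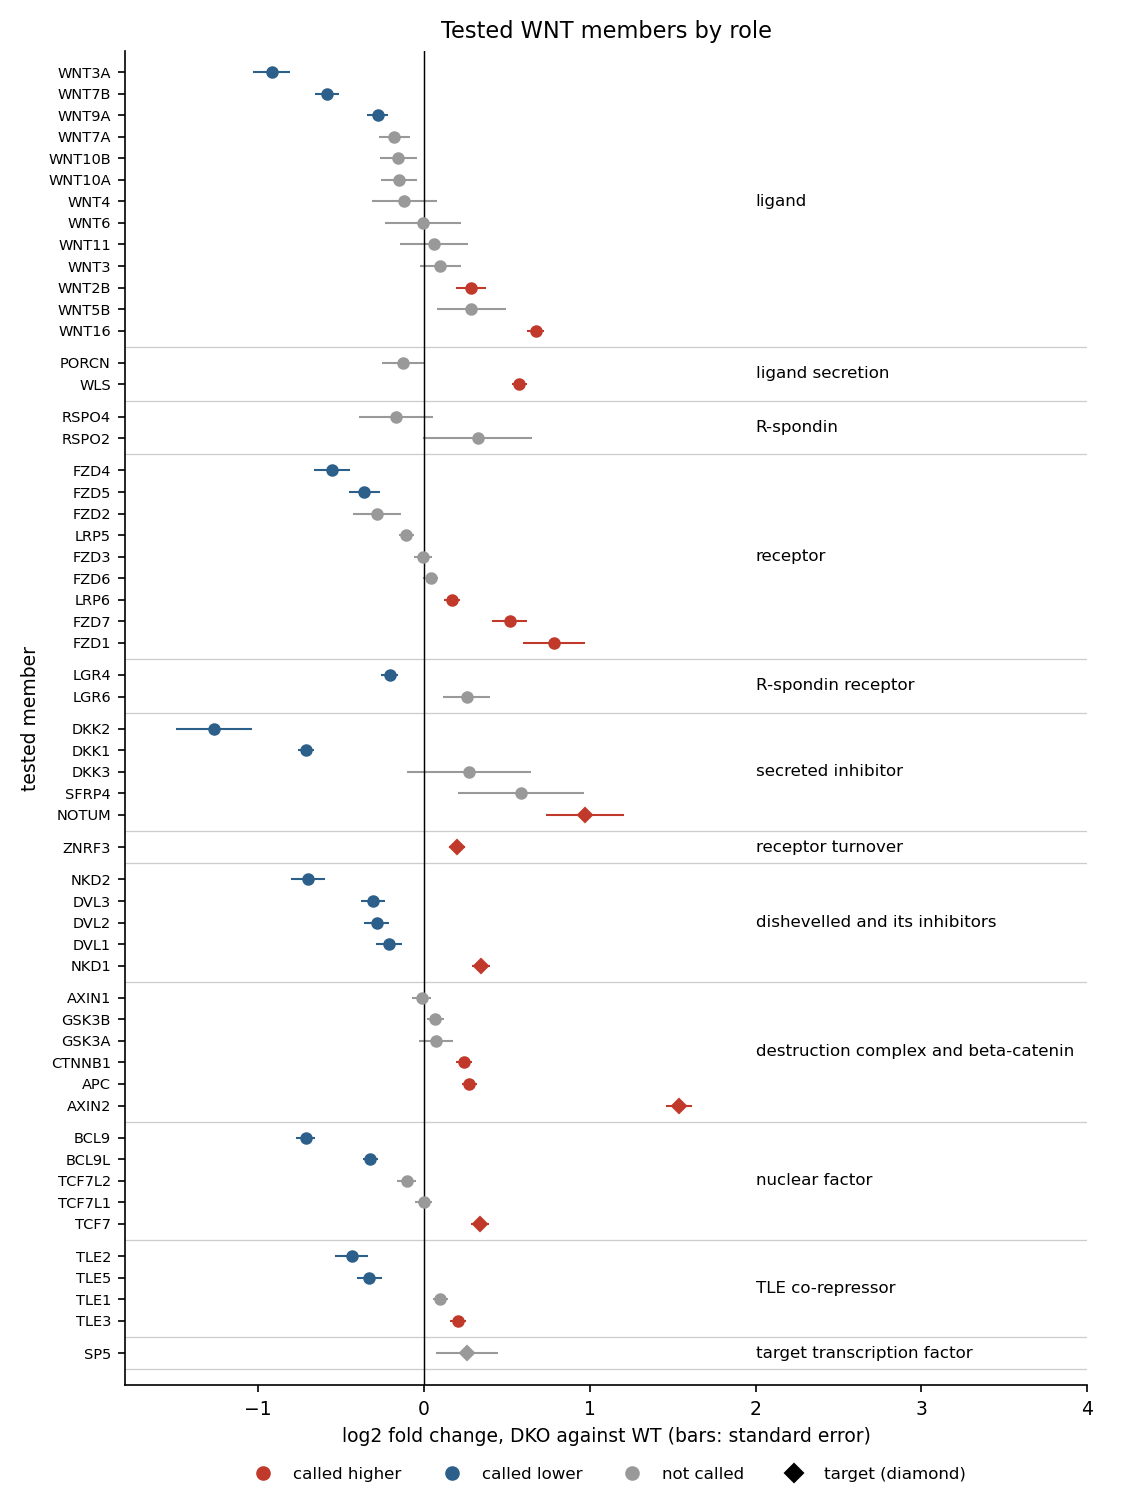
Log2 fold change of nascent RNA, DKO against WT, for each of the 55 tested members, grouped by role, with bars of 1 standard error. Red marks genes called higher, blue genes called lower, grey genes not called, and diamonds the targets, of which 5 of 6 are red.

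Of 10 targets 6 were tested, 5 rose, none fell and SP5 was not called, with a median log2 fold change of 0.34. Leaving out WT replicate 1 left 2 of these calls, AXIN2 and TCF7. AXIN2, which encodes a scaffold of the destruction complex and is the most widely used readout of β-catenin activity, led them. It stood at 25.6 and 26.4 CPM in DKO and at 9.35 and 8.54 in WT. The DKO libraries were both far above the WT libraries, and the rise was 2.91-fold (log2 1.54 ± 0.08, SE, n = 2 per group, adjusted p = 2.94e-47). It was called under each alternative, with log2 values of 1.47 to 1.61 when a library was left out. AXIN2 lies on chromosome 17 from 65528563 to 65561648 (hg38), in a region whose 40 nearest tested genes had a median log2 fold change of -0.003.

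NKD1 (chromosome 16, 50548396 to 50649249) encodes an inhibitor that binds Dishevelled. It had 52.3 and 56.2 CPM in DKO and 41.1 and 44.3 in WT, with no overlap between the groups and a rise of 1.27-fold (log2 0.35 ± 0.05, adjusted p = 1.64e-08). TCF7 (chromosome 5, 134108218 to 134148210), the gene of a TCF family transcription factor, had 45.4 and 46.5 CPM in DKO and 37.1 and 35.5 in WT. It rose by nearly the same factor as NKD1 (log2 0.34 ± 0.06, adjusted p = 8.89e-08). The annotation lets the opposite-strand gene VDAC1 overlap TCF7, and VDAC1 itself was not called (log2 -0.08, adjusted p = 0.162).

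ZNRF3 (chromosome 22, 28883572 to 29057488), the ubiquitin ligase gene, stood at 355 and 370 CPM in DKO and 309 and 323 in WT, so that the lowest DKO library was above the highest WT library by a small step. Its rise was 1.15-fold (log2 0.20 ± 0.05, adjusted p = 0.000376). NOTUM (chromosome 17, 81952507 to 81961187) encodes a secreted enzyme that strips the lipid from WNT proteins. It was a low gene, with 49 and 79 reads in the DKO libraries and 34 and 29 in those of WT, and its rise of 1.96-fold (log2 0.97 ± 0.24, adjusted p = 0.000318) rested largely on DKO replicate 2. Without that library the log2 value was 0.59 (adjusted p = 0.133), and the call was also lost without WT replicate 1 (0.162) or WT replicate 2 (0.175). ZNRF3 lost its call without WT replicate 1 (adjusted p = 0.144) or WT replicate 2 (0.0646) and with no filter beyond 1 read (0.057), as did NKD1 without WT replicate 1 (0.0739). AXIN2 and TCF7 were called in each of these runs.

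SP5, a transcription factor gene and a direct β-catenin target in many tissues, was not called. It had 83 and 78 reads in the DKO libraries and 68 and 62 in those of WT (log2 0.26 ± 0.19, adjusted p = 0.283), and a change as large as that of NKD1 lies within 1 SE of its value. The 4 remaining targets had few or no counted reads. LGR5, a marker of crypt stem cells, had 6 and 3 reads in DKO and 2 and 2 in WT. LEF1 had 4 and 3 against 1 and 2, and ASCL2, a factor of crypt stem cells, 1 and 2 against 1 and 0. RNF43, which spans 65.0 kb, had no read counted in any library. A count of 0 allows up to 3 reads in each, but the annotation places another gene over RNF43, and whether its reads were lost in counting cannot be told from these counts. For these genes no direction can be given.

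**Figure D2:**
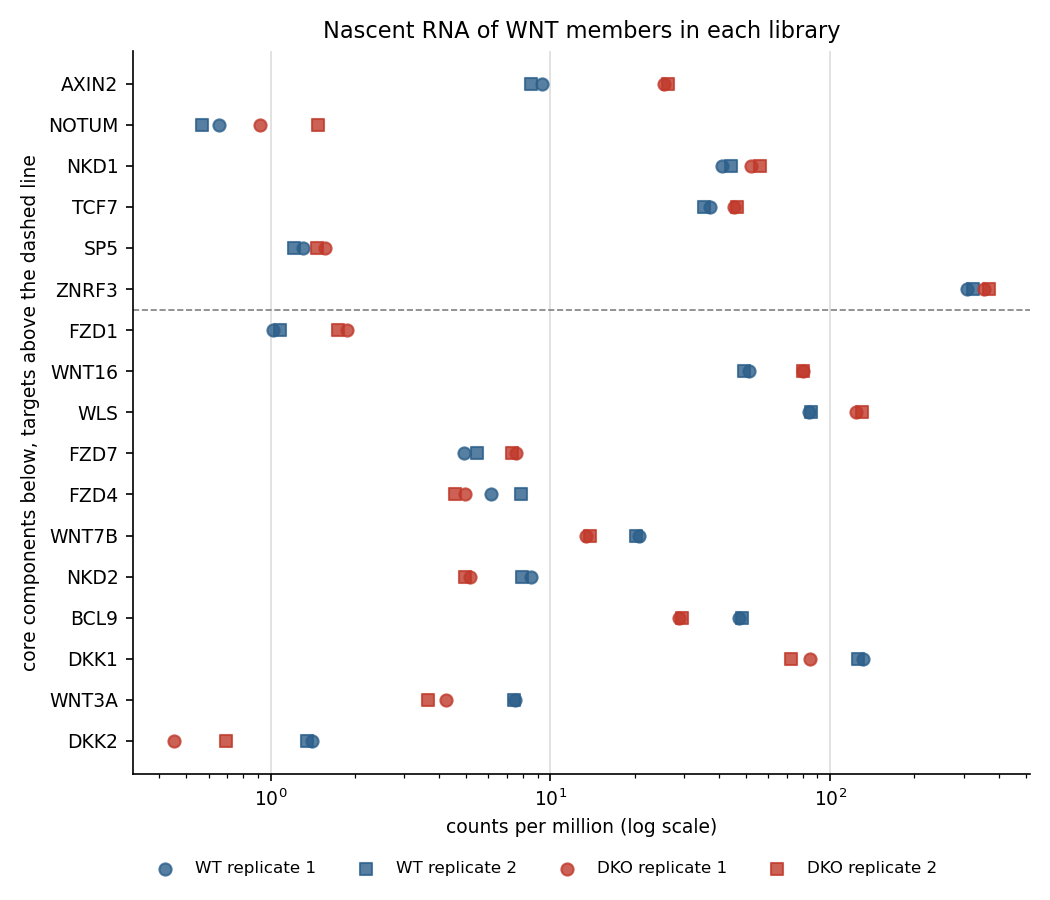
CPM, on a log scale, of the 17 members described with values in every library, targets above the dashed line and core components below it. Red points are DKO libraries and blue points WT libraries, circles replicate 1 and squares replicate 2; for each gene the colours do not overlap.

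TCF and LEF factors bind short sites, of which CTTTGAT is the classic core and CTTTGTT a variant. RefSeq promoter sequences were at hand for 54 of the 75 members. They were missing for AXIN2, NKD1, ZNRF3 and NOTUM, so these targets, all called higher, were not searched. Sequences are shown for SP5, TCF7 and DKK1 because they hold such letters upstream of genes that were not called, rose and fell. In the 250 bases before the annotated start, CTTTGAT on either strand was found in 1 of 71 member promoters, that of SP5, and in 2.26% of 35116 promoters in all. CTTTGTT was in 3 of the 71, those of TCF7, DKK1 and TCF7L2, and in 4.5% of all. Each window shown holds 1 match to either string, and no other variant was searched for. Capitals mark it, read 5′ to 3′ on the gene's strand, which is the plus strand of GRCh38.p14 for each. SP5 lies at chr2:170715087-170715336, TCF7 at chr5:134123368-134123617, before a start inside the gene's annotated span and with the match on the opposite strand, and DKK1 at chr10:52314031-52314280.
SP5: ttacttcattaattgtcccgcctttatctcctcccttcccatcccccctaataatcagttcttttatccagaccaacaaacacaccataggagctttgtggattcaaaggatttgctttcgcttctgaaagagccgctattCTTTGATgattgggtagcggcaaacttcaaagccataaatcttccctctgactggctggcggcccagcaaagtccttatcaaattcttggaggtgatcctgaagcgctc
TCF7: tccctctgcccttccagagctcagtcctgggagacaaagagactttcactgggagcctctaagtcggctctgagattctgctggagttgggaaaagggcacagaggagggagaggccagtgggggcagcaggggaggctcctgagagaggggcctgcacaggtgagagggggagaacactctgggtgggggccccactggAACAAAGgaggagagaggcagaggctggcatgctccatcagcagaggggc
DKK1: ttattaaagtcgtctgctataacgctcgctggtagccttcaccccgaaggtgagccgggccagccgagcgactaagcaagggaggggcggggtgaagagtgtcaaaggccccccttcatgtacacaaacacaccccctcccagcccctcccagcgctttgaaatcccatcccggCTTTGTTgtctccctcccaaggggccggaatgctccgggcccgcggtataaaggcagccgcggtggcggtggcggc
The match begins 109 bases before the start in SP5, 50 in TCF7 and 76 in DKK1. A match is a string of letters, not a shown binding site, and no binding was measured here.

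Ligand genes were split. Of 19 WNT genes 13 were tested, 2 rose and 3 fell. That is 38.5% called, beside 45.5% of tested protein-coding genes, of which 20.3% rose and 25.2% fell. WNT16 (chromosome 7, 121325367 to 121341104) had 80.2 and 79.9 CPM in DKO and 51.1 and 49.2 in WT. Its groups were well apart, at 1.6-fold (log2 0.67 ± 0.05, adjusted p = 2.66e-27), and the gene was called under each alternative. Its 40 nearest tested genes also leaned up, with a median log2 of 0.25. WNT2B rose less (log2 0.29 ± 0.09, adjusted p = 0.00768) and overlaps ST7L on the opposite strand, which rose by 0.30. Its call was lost with DKO replicate 1 (0.0658), WT replicate 1 (0.134) or WT replicate 2 (0.0945) left out and with DESeq2's Wald test.

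WNT3A (chromosome 1, 228006998 to 228061271), a strong activator of the canonical pathway, had 4.25 and 3.66 CPM in DKO and 7.5 and 7.44 in WT. It fell 1.89-fold (log2 -0.92 ± 0.11, adjusted p = 1.95e-13), and each WT library was well above each DKO library. WNT7B (chromosome 22, 45920366 to 45977162) had 13.4 and 13.9 CPM in DKO against 20.8 and 20.2 and fell 1.5-fold (log2 -0.58 ± 0.07, adjusted p = 3.38e-12). Both falls were called under each alternative. WNT9A, close to WNT3A on chromosome 1, fell by 0.28 (log2, SE 0.07, with adjusted p = 0.000171), with WT libraries that differed from each other (30.3 and 26.5 CPM), and lost its call without WT replicate 1 (0.142). The 8 ligand genes not called ran from WNT7A at -0.18 and WNT10B at -0.15 to WNT3 at 0.10 and WNT5B at 0.29, with WNT10A, WNT4, WNT6 and WNT11 between. WNT1, WNT2, WNT5A, WNT8A, WNT8B and WNT9B had 0 to 5 reads in each library.

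WLS (chromosome 1, 68098459 to 68232546) encodes the carrier that takes lipid-modified WNT proteins to the cell surface. It stood at 123 and 130 CPM in DKO and at 84.2 and 85.7 in WT, clearly apart, and rose 1.49-fold (log2 0.58 ± 0.05, adjusted p = 3.59e-24), also in each alternative. PORCN, the enzyme gene that adds the lipid, was not called (log2 -0.13 ± 0.13, adjusted p = 0.465). Among the R-spondins, RSPO2 (log2 0.32 ± 0.33) and RSPO4 (-0.17 ± 0.23) rested on 17 to 57 reads per library and were not called. RSPO4 is the only tested member on chromosome 20, whose tested genes had a median log2 of -0.59. RSPO1 and RSPO3 had 0 to 2 reads. Of their receptors, LGR4 fell by 0.21 (log2, SE 0.05, with adjusted p = 0.000324) and LGR6 was not called (0.26 ± 0.14). The LGR4 call was lost without WT replicate 1 (0.0855) or WT replicate 2 (0.0583).

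Frizzled receptor genes went both ways, with 2 of 7 tested higher and 2 lower. That is 57.1% called, beside 45.5% of tested protein-coding genes, of which 20.3% rose and 25.2% fell. FZD1 (chromosome 7, 91264433 to 91271326) had 100 and 93 reads in the DKO libraries and 53 and 55 in those of WT, and rose 1.72-fold (log2 0.79 ± 0.19, adjusted p = 0.000247). FZD7 (chromosome 2, 202033855 to 202038441), a Frizzled linked to stem cells of the gut, had 7.53 and 7.29 CPM in DKO and 4.9 and 5.46 in WT and rose 1.43-fold (log2 0.52 ± 0.10, adjusted p = 1.19e-05). FZD4 (chromosome 11, 86945679 to 86955395) had 4.94 and 4.56 CPM in DKO and 6.13 and 7.85 in WT and fell by 0.56 (log2, SE 0.11, with adjusted p = 5.64e-06). The groups of each were apart, but the WT libraries of FZD4 were far from each other. Its log2 value was -0.37 without WT replicate 2 (adjusted p = 0.0867). PRSS23, which overlaps FZD4, moved the other way (log2 0.49, adjusted p = 5.2e-05).

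FZD5, a receptor of the intestinal epithelium, fell by 0.36 (log2, SE 0.09, with adjusted p = 0.000667). Without WT replicate 1 the calls of FZD1 (0.0769), FZD7 (0.0654) and FZD5 (0.115) were lost, and that of FZD5 also without WT replicate 2 (0.0736). FZD6 was nearly level, with 169.3 and 168.5 CPM in DKO and 163 and 165 in WT (log2 0.04 ± 0.05), and so was FZD3 (-0.01 ± 0.05). FZD2 was not called either (-0.28 ± 0.14). FZD8 and FZD9 had 0 to 9 reads per library and FZD10 none. The co-receptor LRP6 rose by a log2 of 0.17 ± 0.05 (adjusted p = 0.00198) while LRP5 was not called (-0.11 ± 0.05, adjusted p = 0.0602). The neighbours of LRP6 had a median log2 of 0.30, above the gene itself, and its call was lost without WT replicate 1 (0.187) or WT replicate 2 (0.104).

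Among secreted inhibitors, DKK1 and DKK2, which can block LRP co-receptors, fell. Of 3 tested DKK genes 2 fell, where 25.2% of tested protein-coding genes did. DKK1 (chromosome 10, 52314281 to 52317657) had 84.6 and 72.3 CPM in DKO and 131 and 126 in WT. It fell 1.64-fold (log2 -0.71 ± 0.05, adjusted p = 1.55e-31), with a gap between the groups wider than that between replicates, and was called under each alternative. Its neighbours on chromosome 10 leaned up, with a median of 0.19. DKK2 (chromosome 4, 106921802 to 107036313) had 24 and 37 reads in the DKO libraries and 73 and 69 in those of WT, and fell 2.4-fold (log2 -1.27 ± 0.23, adjusted p = 1.08e-06). The call of DKK2 was lost without WT replicate 1 (log2 -1.24, adjusted p = 0.0712). DKK3 (0.27 ± 0.37) and SFRP4 (0.59 ± 0.38), an inhibitor that binds WNT proteins, rested on 7 to 22 reads per library and were not called. DKK4 and SFRP2 had no reads, and SFRP1 and SFRP5 at most 1. DKK1 is itself a known β-catenin target in some tissues, and so is less firmly NKD2. With both counted as targets, 5 targets of 8 rose and 2 fell, and the median of the targets was 0.30.

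The genes of the 3 Dishevelled proteins, which relay the signal from the receptors, all fell by a little. Among tested protein-coding genes 25.2% fell. DVL1 fell by 0.21 (log2, SE 0.08, with adjusted p = 0.0221), DVL2 by 0.29 (0.07, 0.000828) and DVL3 by 0.31 (0.07, 0.000237). The lowest WT library was above the highest DKO library for each, but by little for DVL1, with 14.9 against 14.1 CPM. All 3 calls were lost without WT replicate 1 (adjusted p of 0.373, 0.178 and 0.0883), and that of DVL1 also with DKO replicate 2 (0.116) or WT replicate 2 (0.0562) left out, with upper quartile factors and with DESeq2's Wald test. The 40 neighbours of DVL1 had a median of -0.28, further from 0 than the gene. NKD2 (chromosome 5, 1008802 to 1038943), the paralogue of NKD1, had 5.15 and 4.97 CPM in DKO and 8.54 and 7.91 in WT. It fell 1.63-fold (log2 -0.70 ± 0.10, adjusted p = 1.4e-09) under each alternative, so the 2 NKD genes moved in opposite directions.

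Among the members in the destruction complex nothing was called lower, where 25.2% of tested protein-coding genes were. Casein kinase 1 genes belong to a further list, in which CSNK1E (log2 -0.33) and CSNK1G1 (-0.20) fell and CSNK1G3 (0.28) rose. CSNK1A1, CSNK1D and CSNK1G2 were not called. APC, the scaffold lost in most colorectal cancers, rose 1.21-fold (log2 0.27 ± 0.05, adjusted p = 2.11e-07), from 117 and 122 CPM in WT to 141 and 148 in DKO. CTNNB1, the gene of β-catenin, stood at 236 and 237 CPM in DKO and 198 and 202 in WT. The gap between the groups was far wider than that between replicates, though the rise was only 1.18-fold (log2 0.24 ± 0.05, adjusted p = 4.92e-06). Without WT replicate 1 APC (0.0739) and CTNNB1 (0.0681) missed the threshold with log2 values of 0.25 and 0.23. AXIN1, the paralogue of AXIN2 that is not induced by the pathway, had 36.9 and 36.1 CPM in DKO and 38.2 and 35.4 in WT (log2 -0.01 ± 0.06, adjusted p = 0.888). The kinase genes GSK3A (0.07 ± 0.10) and GSK3B (0.07 ± 0.05) were not called either.

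Among nuclear factors, BCL9 and BCL9L, which tether PYGO co-activators to β-catenin, fell. BCL9 (chromosome 1, 147541501 to 147626216) had 28.9 and 29.6 CPM in DKO and 47.4 and 48.5 in WT, well apart, and fell 1.64-fold (log2 -0.71 ± 0.06, adjusted p = 8.11e-25). BCL9L fell by 0.32 (log2, SE 0.05, with adjusted p = 1.43e-09). Both were called under each alternative, BCL9L narrowly so without WT replicate 1 (adjusted p = 0.0498). TCF7L2, the main TCF factor of the colon, had 1538 and 1739 CPM in DKO and 1721 and 1801 in WT, with groups that overlap (log2 -0.10 ± 0.06, adjusted p = 0.141). It was called lower without DKO replicate 2 (log2 -0.20, adjusted p = 0.00725), with limma voom and with the replicate number as a block. TCF7L1, which acts mainly as a repressor, was level (-0.002 ± 0.05). Of the TLE genes, whose proteins hold TCF targets silent, TLE3 rose (log2 0.21 ± 0.05, adjusted p = 0.000103), TLE2 fell by 0.44 (SE 0.10, with adjusted p = 9.79e-05), and TLE5, a short member that can counter the others, fell by 0.33 (SE 0.08, with adjusted p = 0.000129). TLE1 was not called (0.10 ± 0.05) and TLE4 had 1 to 6 reads. Leaving out WT replicate 1 ended the calls of TLE2 (0.0818), TLE3 (0.0587) and TLE5 (0.152), and leaving out WT replicate 2 that of TLE3 (0.095).

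**Figure D3:**
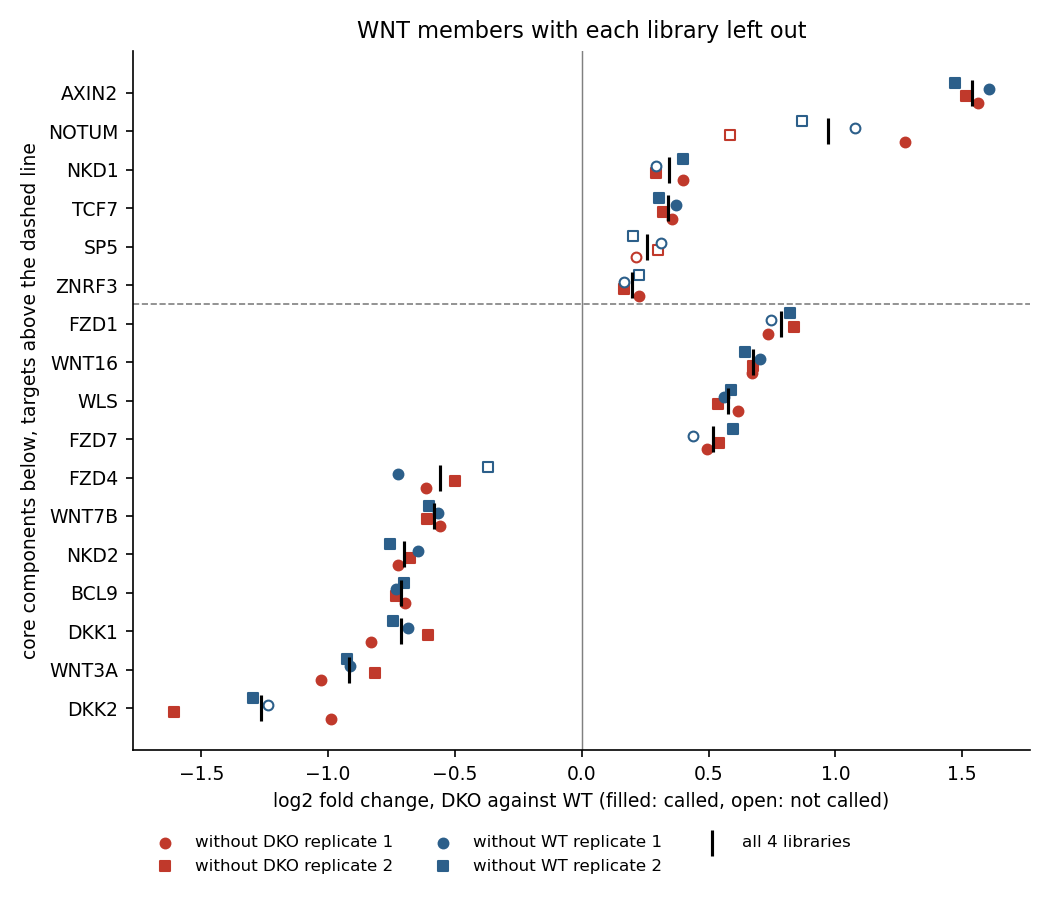
Log2 fold change, DKO against WT, of the same 17 members with all 4 libraries (black bar) and with each library left out in turn (coloured points). Filled points were called and open points were not; NOTUM spreads widest among the targets, from 0.59 to 1.27, and AXIN2 stays between 1.47 and 1.61.

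Set side by side, 5 of 6 tested targets rose and none fell, while 9 of 49 tested core components rose and 16 fell. Among tested protein-coding genes 20.3% rose and 25.2% fell, and the counts of core components lie near those shares. The median log2 fold change was 0.34 in targets and -0.10 in core components, beside -0.03 over tested protein-coding genes. All 6 tested targets had both DKO libraries above both WT libraries, SP5 included, where the groups did not overlap, in either direction, for 71.7% of tested protein-coding genes. The median of core components depended on single libraries, at 0.004 without DKO replicate 1 and -0.01 without WT replicate 1. Targets called higher were 4 without DKO replicate 2, 2 without WT replicate 1 and 3 without WT replicate 2. Of the 10 tested genes in a further list of targets, given below, 5 rose and 4 fell. DKK1 and NKD2, which can also be counted as targets, both fell. No test was made of the difference between the classes, which describes a handful of genes in 4 libraries.

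AXIN2, TCF7, WNT16 and WLS were called higher under all of the 13 alternative fits, and WNT3A, WNT7B, DKK1, NKD2, BCL9 and BCL9L lower. The share of all tested genes called under all of these fits was not counted. Nothing particular to the pathway can thus be read from the number of such members.

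Gene length was set beside these values. Topoisomerases relieve the torsion of transcribed DNA, and long and short genes had different medians across the genome. Tested protein-coding genes spanning under 10 kb had a median log2 fold change of -0.12, and those over 120 kb 0.07. Of 10 tested members over 120 kb, 4 rose and none fell (WLS, LRP6, ZNRF3 and APC), where 36.1% of protein-coding genes of that span rose and 17.1% fell. Of 13 members of 10 to 30 kb, 1 rose, WNT16, and 5 fell, among them DVL1, DVL3 and TLE5, where 12.6% rose and 30.2% fell. Of 10 members under 10 kb, 3 rose and 4 fell, where 10.5% rose and 31.3% fell. Of 13 members of 30 to 60 kb, 4 rose and 4 fell, beside 19.7% and 23.9%, and of 9 members of 60 to 120 kb, 2 rose and 3 fell, beside 27.7% and 20.5%. With 9 to 13 members in a bin, their median log2 values were -0.22, -0.13, 0.10, -0.01 and 0.18 from the shortest to the longest. Those of tested protein-coding genes were -0.12, -0.07, -0.02, 0.03 and 0.07. Both were lowest in the shortest bin and highest in the longest, and those of members climbed unevenly. AXIN2 at 33.1 kb, NOTUM at 8.68 kb, FZD1 at 6.89 kb and WNT16 at 15.7 kb rose in spans where the median was below 0. DKK2 at 114.5 kb and BCL9 at 84.7 kb fell in a span where it was 0.03. The part of span in the values of single members was not tested.

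**Figure D4:**
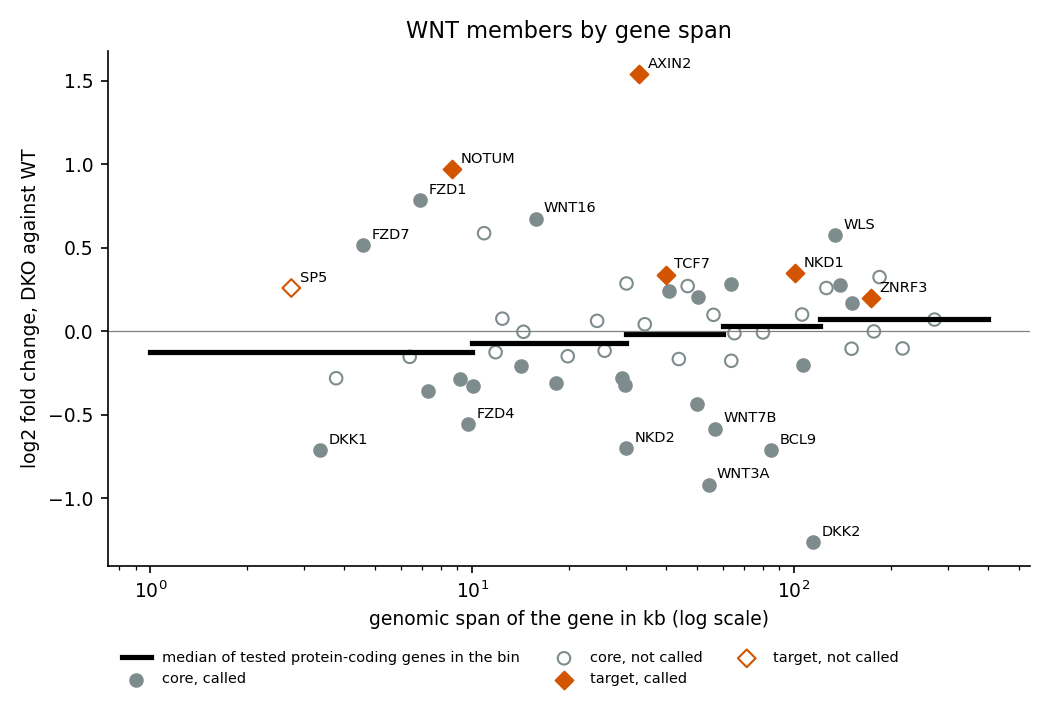
Log2 fold change, DKO against WT, of each tested member against its genomic span in kb on a log scale, with the median of tested protein-coding genes in 5 span bins as black lines. Targets are diamonds and called genes are filled. The black lines climb from -0.12 to 0.07, and members lie on both sides of them.

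Position was looked at in the same way, as a description. The up to 40 nearest tested genes of each called member had median log2 fold changes of -0.28 to 0.30, and those of the 17 members described in every library -0.15 to 0.25.

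**Figure D5:**
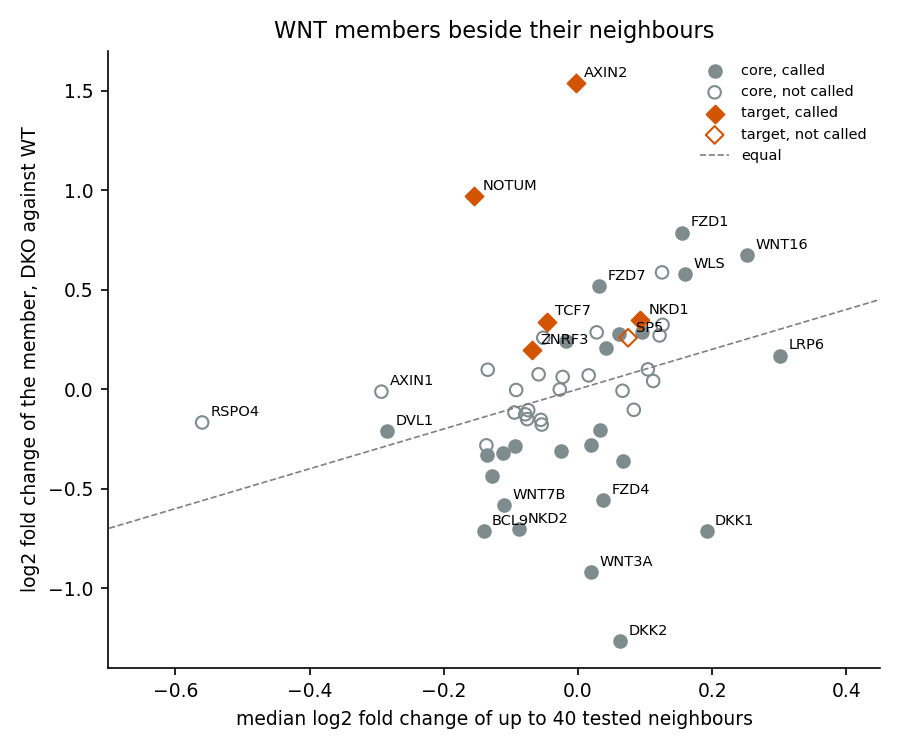
Log2 fold change, DKO against WT, of each tested member against the median of up to 20 tested neighbours on either side, with the line of equal values dashed. RSPO4, on chromosome 20, sits at the far left, and AXIN2 and NOTUM lie high above neighbours with medians of -0.003 and -0.15.

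Other genes of the pathway, in 3 further lists, numbered 72, of which 62 were tested, 22 rose and 19 fell. That is 66.1% called, beside 45.5% of protein-coding genes, of which 20.3% rose and 25.2% fell. Of 16 further known β-catenin targets 10 were tested, 5 rose and 4 fell. BMP4, a growth factor gene, rose 4.86-fold (log2 2.28 ± 0.05, adjusted p = 1.52e-103), from 53.6 and 52.3 CPM in WT to 261 and 253 in DKO. BAMBI, a decoy receptor gene, rose 1.61-fold (log2 0.69 ± 0.09, adjusted p = 7.18e-11), and MYC (0.30), SOX9 (0.27) and CD44 (0.17) rose less. TNFRSF19, a receptor of crypt stem cells, fell 2.59-fold (log2 -1.37 ± 0.14, adjusted p = 2e-17), from 4.67 and 4.42 CPM in WT to 1.75 and 1.76 in DKO. The ephrin receptor genes EPHB3 (-0.93 ± 0.17) and EPHB2 (-0.53 ± 0.05) and the cyclin gene CCND1 (-0.34) fell too, and FGF18 was not called. MMP7, TDGF1, APCDD1, SMOC2, PROX1 and CDX1 had too few reads to test. MYC, CD44 and CCND1 answer to many other signals as well.

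Of 36 further regulators 33 were tested, 12 rose and 8 fell, so that 60.6% were called, beside 45.5% of protein-coding genes. CXXC4, an inhibitor of Dishevelled, went from 1.04 and 1.16 CPM in WT to 3.34 and 3.19 in DKO, a rise of 2.97-fold (log2 1.57 ± 0.16, adjusted p = 1.52e-16). TRABD2A, whose protein inactivates WNT ligands, rose 1.93-fold (0.95 ± 0.11) and PYGO1, a co-activator gene, 2.39-fold (1.26 ± 0.26), from 22 and 24 reads in the WT libraries. KREMEN2, a receptor for DKK proteins, fell 2.1-fold (-1.07 ± 0.18, adjusted p = 7.67e-08). FRAT1, a GSK3 inhibitor gene, was called on 10 to 23 reads per library (0.91 ± 0.38, adjusted p = 0.044), and lost the call with any library left out (adjusted p of 0.0975 to 0.232). PYGO1 lost it without WT replicate 1 (0.0738).

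Of 20 genes of non-canonical signalling and planar polarity 19 were tested, 5 rose and 7 fell. That is 63.2% called, beside 45.5% of protein-coding genes. PRICKLE2, of the planar polarity complex, had 109 and 88 reads in the DKO libraries and 9 and 9 in those of WT (log2 3.38 ± 0.28, adjusted p = 1.6e-23). VANGL2, a membrane protein of the same complex, went the other way, with 46 and 39 reads in the WT libraries and 7 and 9 in those of DKO (log2 -2.44 ± 0.35, adjusted p = 6.77e-10). Each of them passed the filter on low counts through the group where it is high. ROR1, a receptor for WNT5A, rose 1.45-fold (0.53 ± 0.05), and VANGL1 by a log2 of 0.36. ROR2, its relative, was not called (-0.07 ± 0.05).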

How the data were processed

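Nascent RNA of 2 DKO and 2 WT libraries was analysed, grouped by their titles. The authors deposited raw read counts per Ensembl gene; STAR 2.7.3a, featureCounts 1.6 and build hg38 are named in the submitters' processing notes. No source used here gives the gene set version, strand setting or counted feature, so reads of overlapping genes cannot be told apart. Symbols came from a gene name table (42020 of 60656 IDs) and positions from RefSeq, GRCh38.p14. edgeR 4.0.16 (R 4.3.3) was run with TMM factors, filterByExpr (minimum count 10, minimum total 15) and the quasi-likelihood F-test, with group as the only term. The SE is the absolute log2 fold change over the square root of F,. CPM use TMM-scaled totals.

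The members, lists and tests were chosen with earlier results of these data known. Named genes were each tested target, core components called with an absolute log2 fold change of at least 0.5, and up to 5 such genes per further list; other genes are given in brief, some singled out after their values were seen. The fit was also run on simulated counts with the same relative spread set for all genes, which cannot vouch for the calls made here. Alternatives were other scaling factors, filters and tools (DESeq2 1.42.0, limma 3.58.1), a replicate block, no chromosome 20 genes, each library left out, and other class definitions. Promoter sequences are RefSeq's. Figures used matplotlib 3.10.9.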

Additional observations from a re-analysis of the deposited data

How the results depend on the processing

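None of the 30 called members, nor of the 13 genes of the further lists named by the rule, turned direction under any alternative run. The groups of each did not overlap in CPM, so this outcome was nearly fixed in advance where a library was left out. Other listed genes, such as MYC, CCND1 and VANGL1, were not followed through the alternatives. With no filter beyond 1 read, calls were 1640 higher and 1655 lower over all genes (main 3632 and 4025), 9 and 10 among WNT members, 3 higher among targets, 10 lower among core components, and 10 and 8 in the further lists; the median of targets, then including genes of few reads, was 0.96. The cause was not tested, apart from those added genes. DESeq2's Wald test called 2524 genes lower. With DKK1 and NKD2 as targets, 2 targets fell and the core median was -0.0126. With each library left out, all genes ranged from 1023 to 3127 higher and 928 to 3443 lower, WNT members from 4 to 14 and 7 to 17, targets from 2 to 5 higher, core components from 2 to 9 higher and 7 to 17 lower with a median of -0.12 to 0.00439, and the further lists from 8 to 20 and 5 to 19. In those fits the spread comes from the group that still has 2 libraries. The replicate block gave 14 members higher and 18 lower, keeping the 30 calls and adding LRP5 and TCF7L2. Same-numbered libraries did not deviate together (r = -0.01 over 10036 genes). With only 2 libraries in each group, this cannot exclude that equal numbers mark libraries handled together. Upper quartile factors gave 4226 higher and 3328 lower over all genes, and 15 and 15 among members. Genes under about 100 reads per library, such as NOTUM, SP5, DKK2 and FZD1, are limited by counting.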
